A study of Homo sapiens with 6 samples.

Results

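The genes described here belong to families whose proteins choose and build splice sites. They are the SR and TRA2 proteins, the hnRNP and PTBP proteins, and the subunits of the U2 snRNP and U2AF. The Sm and LSM proteins and the tissue-type regulators of the MBNL, CELF, ESRP and RBFOX2 group complete them. Some LSM proteins act outside splicing, in mRNA decapping or histone mRNA processing, and are counted with the rest. They were taken from the table of counts as the protein-coding genes whose symbols belong to these families, 84 of the 29476 genes listed. Of the 84, 80 passed the low-count filter of edgeR (filterByExpr) and were tested among 15615 genes. CELF2, ESRP1, ESRP2 and MBNL3 did not pass it.

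RNA was measured in A549, an established human lung adenocarcinoma cell line, by stranded sequencing of polyadenylated RNA. There were 3 libraries from cells transfected with a control siRNA (siCtrl) and 3 from cells transfected with an siRNA against the RNA helicase DDX17 (siDDX17), described in the methods as biological replicates. All 6 cultures received an siRNA with a lipid reagent in MEM with fetal bovine serum, so no untransfected cells enter the comparison, and the effect rests on 1 cell line and 1 siRNA sequence. A characteristics label calls the controls a control plasmid, whereas their titles name an siRNA, and a harvest time is given for RT-qPCR but not for these libraries.

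Splicing removes introns from pre-mRNA in the spliceosome, whose snRNPs each hold a small nuclear RNA in a ring of Sm proteins, or of LSM proteins in the case of U6. The U1 snRNP marks the start of an intron, and U2AF and the U2 snRNP mark its branch point and end. SR proteins mostly promote the use of nearby exons, hnRNP proteins often repress it, and many genes of both families control their own mRNA through exons that lead to its decay. DDX17 is a DEAD-box RNA helicase that takes part in the choice of exons, often together with its paralog DDX5 and with hnRNP proteins.

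Levels are given as CPM, the counts of a gene relative to the size of its library, scaled with the TMM method of edgeR so that the bulk of the genes has a fold change near 0 on the log2 scale. Comparisons between genes use FPKM, which also divides by gene length. Each log2 fold change is siDDX17 over siCtrl. Each adjusted p comes from the quasi-likelihood test of edgeR with Benjamini-Hochberg adjustment over the 15615 genes, and a gene is said to rise or fall when it is under 0.05. With whole-cell RNA, fewer cells of a type and less RNA per cell cannot be told apart.

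DDX17 itself was at 177, 184 and 206 CPM in the controls, against 32.1, 30.8 and 30.4 CPM after knockdown, a decrease of 83.5%. DDX5 differed by a log2 fold change of -0.11 (adjusted p = 0.142). The totals lay between 30658136 and 39182371 counts per library, of which the 80 genes took 1.16% to 1.20%, with a median of 3765 counts per gene and library. The keratins KRT8 and KRT18 were at 1089.6 FPKM or more in every library, the NRF2-driven genes AKR1B10, AKR1C1, AKR1C2 and NQO1, high in this line, were at 129.99 FPKM or more, and EPCAM was between 0.34 and 1.14 FPKM. SFTPB, SFTPC and NKX2-1, which mark alveolar type II cells, were at or under 0.16 FPKM. Of 10 markers of blood, endothelial and stromal cells, CD14 (10.29 to 15.47 FPKM) and ACTA2 (4.94 to 15.55 FPKM) were above 1 FPKM in every library. No other marker was above 0.48 FPKM in any library. The sum over the list, nearly all of it CD14 and ACTA2, was 15.7 to 20.1 FPKM in siCtrl and 28.9 to 31.0 FPKM in siDDX17. The part of this difference in the results was not tested.

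The spread was wider over the siCtrl libraries than over the siDDX17 libraries, and narrower over siCtrl 2 and 3 alone. The median coefficient of variation of the 80 genes was 5.40% over the 3 siCtrl libraries, 3.35% over the 3 siDDX17 libraries, and 2.61% over siCtrl 2 and 3 alone. Over all tested genes the values were 9.06%, 6.16% and 5.39%, so this was not particular to the 80. A spread over 2 libraries is not on a par with that over 3 libraries, and the other pairs of controls were not compared. Among the controls, siCtrl 1 had the lowest value for 33 of the 80 genes and the highest for 29. The same counts are not given here for siCtrl 2 and 3 or over all tested genes, so they do not set siCtrl 1 apart. Counts of genes that rose or fell are given with and without siCtrl 1.

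After DDX17 knockdown 13 of the 80 genes rose and 27 fell, while 40 passed in neither direction. This is 16.25% and 33.75% of them, beside 24.5% higher and 24.3% lower among all tested genes. Without siCtrl 1, 14 rose and 34 fell, against 26.4% and 27.0% of the genes tested there. The median log2 fold change was -0.07 for the 80 genes and 0.01 for all genes.

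The balance of the directions depended on the scaling. TMM divided the siDDX17 libraries by larger factors than the siCtrl libraries, and scaling by library size alone moved the median of all genes by 0.12 and that of the 80 genes to 0.05. Under that scaling 25 of them were higher and 15 lower, beside 33.5% and 16.0% of all genes. On log2(FPKM + 1) with limma 27 were higher and 15 lower, beside 33.3% and 15.2%. All directions below are thus relative to the median gene, and 12 small decreases that pass under TMM were lost with library size only: those of SRSF3, SRSF7, SRSF9, SRSF10, TRA2B, HNRNPD, HNRNPF, HNRNPLL, HNRNPR, SF3B1, LSM11 and MBNL1. All 12 also passed with RLE scaling and with DESeq2, 8 passed with upper quartile scaling (not HNRNPLL, HNRNPR, SRSF3 and TRA2B), and 0 passed with limma on log2(FPKM + 1). The other decreases, 15 genes, and all 13 increases passed under both TMM and library size. When each library was also left out in turn, 11 increases and 15 decreases passed in every fit (13.75% and 18.75%), beside 17.9% and 15.3% of all genes.

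**Figure D1:**
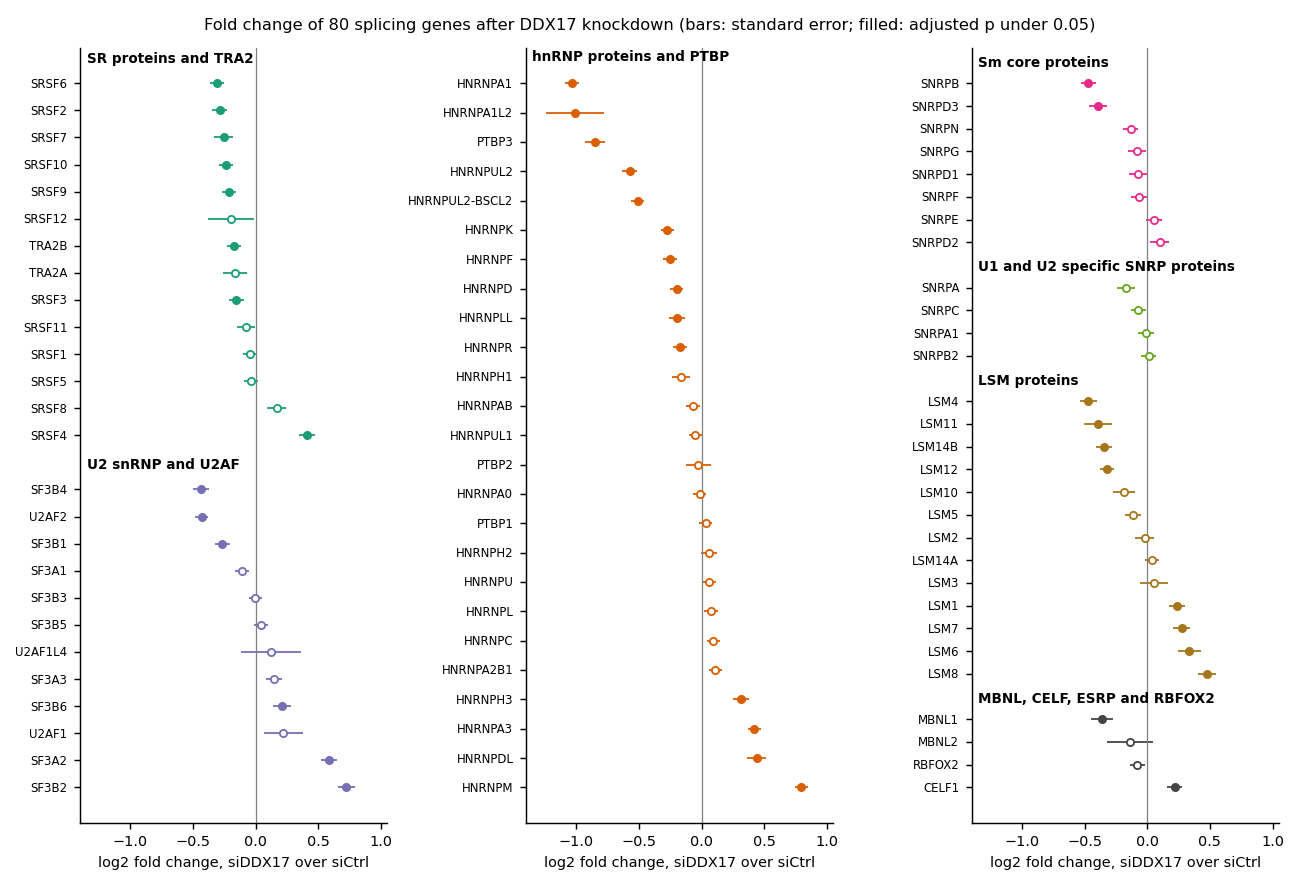
Log2 fold change (x axis, siDDX17 over siCtrl) of each of the 80 tested genes, grouped by role and sorted within it, with bars for the standard error and filled points for an adjusted p under 0.05. Most points lie within 0.5 of 0, and HNRNPA1, HNRNPA1L2 and PTBP3 lie farthest to the left and HNRNPM and SF3B2 farthest to the right.

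The changes were small for most of these genes. The log2 fold change was under 0.5 in size for 72 of the 80. The same count was not made over all genes, so it does not set these genes apart. At an adjusted p under 0.05 and a change of over 2-fold, 0 rose and 2 fell (2.5%), beside 4.65% and 2.92% of all genes. The 3 siCtrl and 3 siDDX17 values did not overlap for 15 genes that were higher and 29 that were lower (18.75% and 36.25%), beside 28.8% and 27.7% of all genes.

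**Figure D2:**
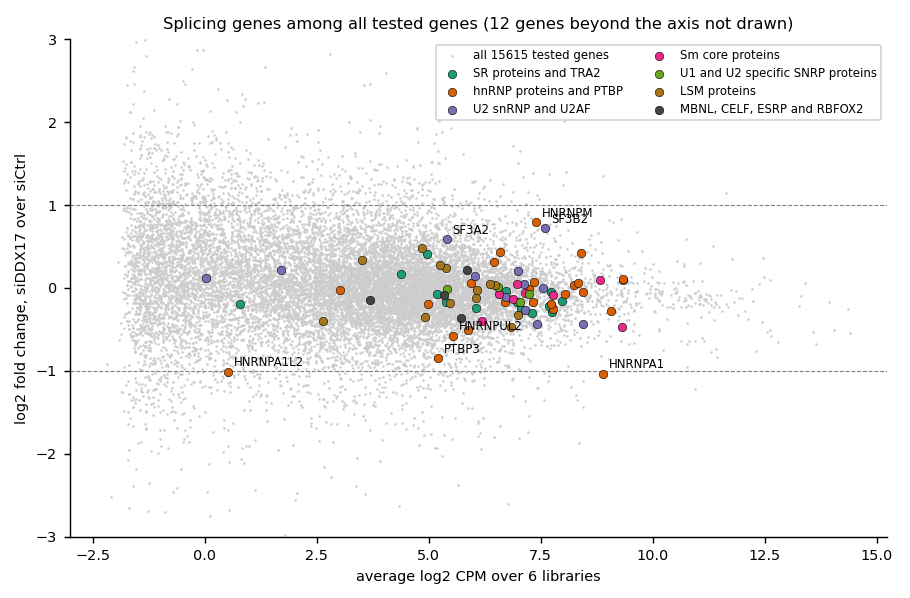
Log2 fold change (y axis) against the average log2 CPM over the 6 libraries (x axis) for all tested genes in grey and the splicing genes in colour by role, with dashed lines at a change of 2-fold and 12 genes beyond the axis left out. Most splicing genes are well expressed and close to 0, and HNRNPA1 is the one highly expressed member at the lower dashed line.

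The counts by role below are to be read beside the shares of all tested genes, 24.5% higher and 24.3% lower. Those shares were 26.4% and 27.0% without siCtrl 1, and 33.5% and 16.0% with library size only. Of the 25 hnRNP and PTBP genes, 4 rose, 10 fell and 11 passed in neither direction, with a median log2 fold change of -0.05. Without siCtrl 1 the counts were 4 and 11, and with library size only 10 and 6. The deepest decrease was that of HNRNPA1 (chr12:54280193-54287088 on GRCh38), one of the most abundant hnRNP proteins, which binds silencer elements and opposes SR proteins at many exons. It was at 648, 659.8 and 612 CPM in the 3 controls (siCtrl 1, 2 and 3), against 326, 299 and 313 CPM in siDDX17 1, 2 and 3. Every control lay far above every siDDX17 value, and the mRNA was lower by 51.1% (log2 fold change -1.03, SE 0.06, adjusted p = 1.87e-08). HNRNPA1L2, a copy of HNRNPA1 on chromosome 13 transcribed at a low level, was at 2.19, 1.75 and 1.71 CPM in the controls, against 1.25, 0.713 and 0.831 CPM after knockdown (log2 fold change -1.01, SE 0.23, adjusted p = 0.00259). In the canonical transcripts of GENCODE release 44, 100% of the 100-base windows of HNRNPA1L2 recur in a noncoding gene and 22.9% in HNRNPA1, so its value may include reads of other copies and is uncertain. Of the windows of HNRNPA1, 27.1% recur in other genes, with 15.6% in HNRNPA1L3. Reads from these windows may not be unique, so its level and its share beside relatives are less certain.

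PTBP3 (chr9:112217716-112333664) was next among the well expressed genes. It encodes a paralog of PTBP1, the protein that binds pyrimidine tracts and represses exons. PTBP3 mRNA was measured at 54.2, 45.1 and 43.95 CPM in the 3 controls (siCtrl 1, 2 and 3), against 25.5, 26.2 and 27.8 CPM in siDDX17 1, 2 and 3. All siDDX17 values were below the lowest control, and siCtrl 1 was the highest control. The decrease was 44.5% (log2 fold change -0.85, SE 0.08, adjusted p = 2.28e-06), with a log2 fold change of -0.76 without siCtrl 1. PTBP1 was at 300.5, 299.8 and 291 CPM in the controls, against 306, 312 and 293 CPM after knockdown (log2 fold change 0.03, adjusted p = 0.65), and PTBP2, the form best known from neurons, was at 8.83, 7.796 and 7.55 CPM in the controls, against 7.26, 8.26 and 8.25 CPM after knockdown (log2 fold change -0.02, adjusted p = 0.862). For both, the values of the groups overlapped.

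HNRNPUL2, related to the scaffold attachment protein HNRNPU, fell from 53.0 to 58.8 CPM in siCtrl to 36.2 to 38.6 CPM in siDDX17 (log2 fold change -0.57, SE 0.06, adjusted p = 5.45e-06). The readthrough gene HNRNPUL2-BSCL2 fell as well (log2 fold change -0.51). Of its windows 97.5% recur in other genes, most of them in HNRNPUL2, so this is not a separate observation. Of the HNRNPUL2 windows 44.8% recur in the readthrough gene, so the level of HNRNPUL2 is less certain too. Both genes are counted among the decreases. HNRNPK, a KH-domain protein that binds C-rich RNA, was at 582, 590.2 and 593 CPM in the controls, against 494, 478 and 487 CPM after knockdown and fell by a small but steady amount (log2 fold change -0.27, SE 0.05, adjusted p = 7.04e-04). HNRNPF, HNRNPD, HNRNPLL and HNRNPR had log2 fold changes of -0.25, -0.20, -0.19 and -0.17, and these 4 did not pass with library size only.

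HNRNPM (chr19:8444767-8489114), which binds GU-rich intronic sequence and acts on exons that change in the epithelial to mesenchymal transition, had the largest increase of the 80 genes. It was at 125, 124 and 121 CPM in the 3 controls (siCtrl 1, 2 and 3), against 213, 215 and 213 CPM in siDDX17 1, 2 and 3. Its values within a group differed by a few CPM, and the level was higher by 73.4% (log2 fold change 0.79, SE 0.05, adjusted p = 6.77e-08). HNRNPDL, a paralog of HNRNPD that regulates its own mRNA through its last exons, was at 90.8, 81.2 and 73.5 CPM in the controls, against 116, 106 and 111 CPM after knockdown and rose (log2 fold change 0.44, SE 0.07, adjusted p = 2.51e-04). HNRNPA3, a relative of HNRNPA1, was at 295, 287 and 281 CPM in the controls, against 394, 381 and 381 CPM after knockdown (log2 fold change 0.42, adjusted p = 2.33e-05). HNRNPH3, of the family that binds G runs, had a log2 fold change of 0.32 (adjusted p = 0.00107). For each of these 4 genes the siDDX17 values all lay above the controls. HNRNPA2B1, the most abundant relative of HNRNPA1 by FPKM, was at 156, 152 and 151 FPKM in the controls, against 181, 175 and 187 FPKM after knockdown, but its log2 fold change of 0.11 on the CPM scale did not pass under TMM (adjusted p = 0.0992), and it passed with library size only (0.23, adjusted p = 0.00147).

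**Figure D3:**
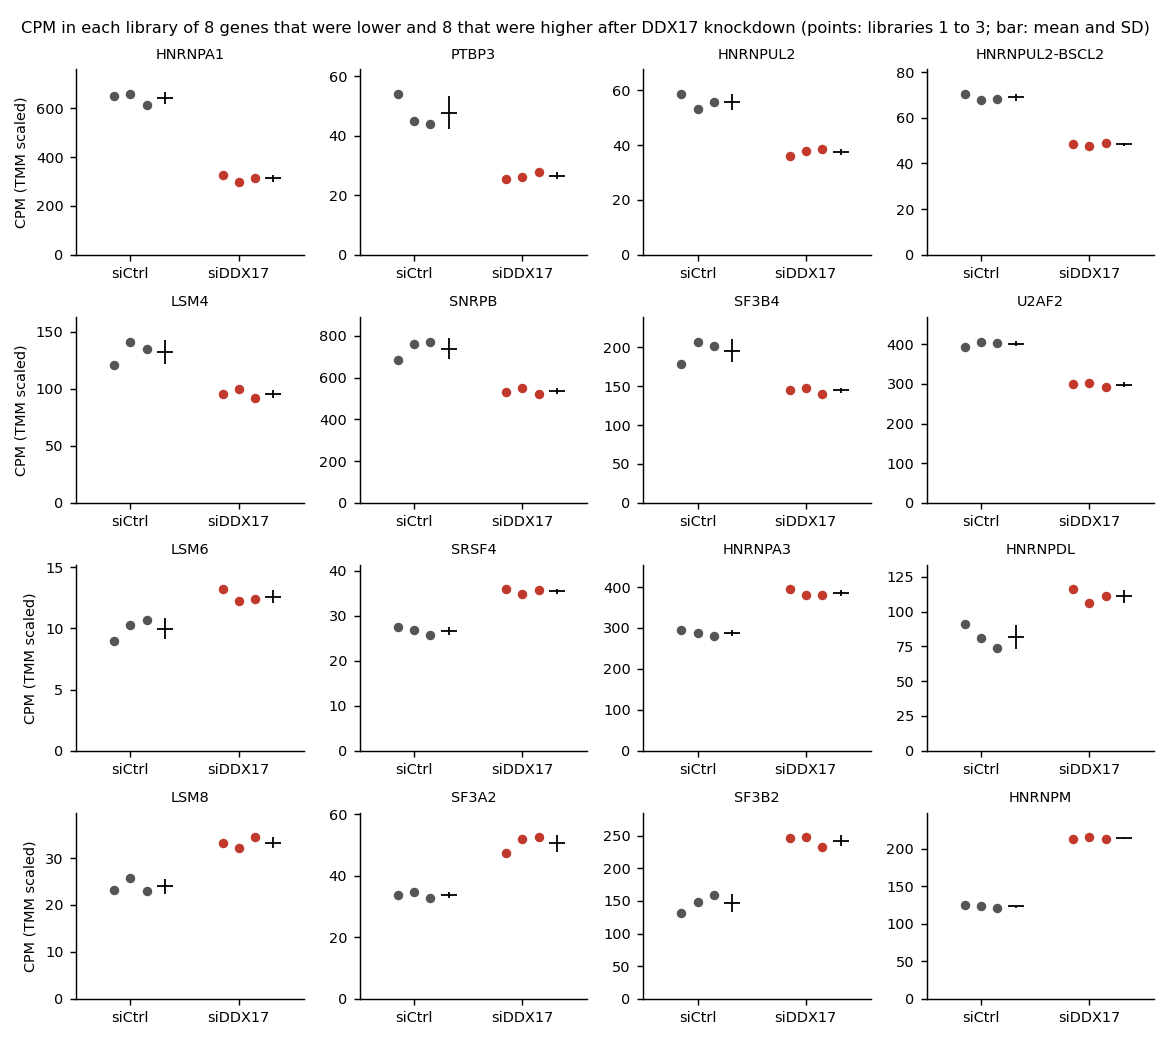
CPM (y axis, from 0) in each siCtrl (grey) and siDDX17 (red) library of the 8 genes with the largest decreases and the 8 with the largest increases among those whose average log2 CPM was 3 or more, with the mean and SD beside the points. The genes were chosen among those at an adjusted p under 0.05 whose groups did not overlap. By that choice the 3 siDDX17 points lie all below or all above the 3 siCtrl points in every panel.

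Where paralogs differ in direction, their shares shift within a family. The shares were taken from FPKM, so that gene length does not enter, and 14 of them were compared with exact two-sided permutation tests of 3 against 3 libraries, for which the smallest p is 0.1 and the adjusted p cannot pass 0.05. PTBP3 made up 7.26%, 6.13% and 6.15% in siCtrl and 3.504%, 3.52% and 3.96% in siDDX17 of the PTBP sum (exact p = 0.1, adjusted p = 0.28). PTBP1 made up the rest apart from PTBP2, with 92.7% ± 0.695 in siCtrl and 95.6% ± 0.306 in siDDX17 (SD, n = 3). HNRNPH1 was 42.9% ± 2.12 in siCtrl and 36.8% ± 0.749 in siDDX17 of the HNRNPH1, HNRNPH2 and HNRNPH3 sum (SD, n = 3), and HNRNPH3 was 31.4% ± 0.352 in siCtrl and 37.5% ± 1.16 in siDDX17, each without overlap between the groups. The level of HNRNPH1 itself did not pass the edgeR test (log2 fold change -0.17, adjusted p = 0.0678, and -0.08 without siCtrl 1). HNRNPA1, HNRNPA2B1 and HNRNPA3 were added as a set after their values had been seen and are given without a test. HNRNPA1 held 41.2%, 41.5% and 40.3% in siCtrl and 23.6%, 22.6% and 22.8% in siDDX17 of their sum. HNRNPA2B1 held 45.9% ± 0.558 in siCtrl and 56.9% ± 0.71 in siDDX17, and HNRNPA3 held 13.1% ± 0.247 in siCtrl and 20.1% ± 0.352 in siDDX17 (SD, n = 3).

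**Figure D4:**
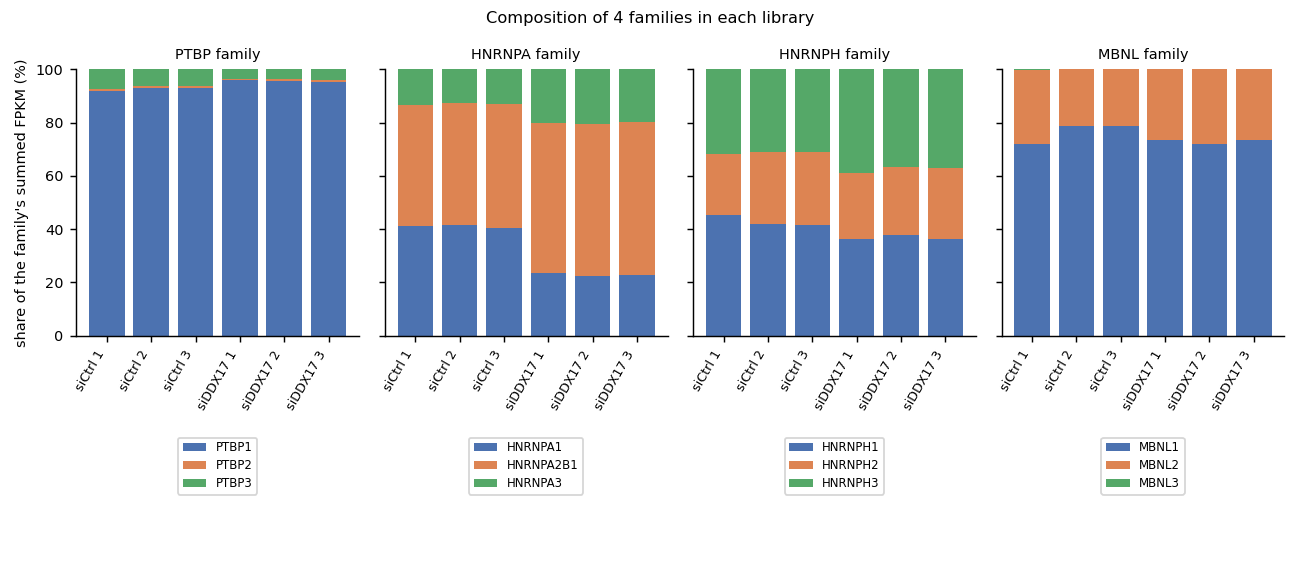
Share (y axis, percent) of each paralog in the summed FPKM of its set, in each of the 6 libraries (x axis), for PTBP1 to PTBP3, HNRNPA1 with HNRNPA2B1 and HNRNPA3, HNRNPH1 to HNRNPH3 and MBNL1 to MBNL3. The HNRNPA1 share is 40.3% to 41.5% in siCtrl and 22.6% to 23.6% in siDDX17, and in the MBNL set siCtrl 1 is like the siDDX17 libraries.

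Among the 14 SR and TRA2 genes 1 rose, 7 fell and 6 passed in neither direction, with a median log2 fold change of -0.17. The counts were 2 and 7 without siCtrl 1, and 2 and 2 with library size only, so most of these decreases are small enough to depend on the scaling. SRSF6 and SRSF2 fell under both scalings. SRSF6, which binds enhancer elements in exons, was at 176, 176 and 173 CPM in the controls, against 145, 136 and 144 CPM after knockdown, with all siDDX17 values below the controls (log2 fold change -0.31, SE 0.05, adjusted p = 4.00e-04). SRSF2, the protein long used to mark nuclear speckles, was at 219, 242 and 252 CPM in the controls, against 196, 192 and 197 CPM after knockdown (log2 fold change -0.29, SE 0.06, adjusted p = 0.00167). The opposite direction was seen in SRSF4, which belongs to the same subgroup as SRSF6 and has a long RS domain. It was at 27.4, 26.9 and 25.7 CPM in the controls, against 35.9, 34.8 and 35.7 CPM after knockdown, and the siDDX17 values all lay above the controls (log2 fold change 0.41, SE 0.06, adjusted p = 1.26e-04).

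The SR genes with the highest FPKM were SRSF9, at 175, 165 and 165 FPKM in the controls, against 155, 162 and 161 FPKM after knockdown, and SRSF2, at 69.98, 74.1 and 79.05 FPKM in the controls, against 66.99, 64.8 and 68.3 FPKM after knockdown. SRSF9 fell by a log2 fold change of -0.21 under TMM and did not pass with library size only (-0.09, adjusted p = 0.168). SRSF1, the archetype of the family, was at 219, 221 and 205 CPM in the controls, against 210.2, 204 and 209 CPM after knockdown, with overlapping groups (log2 fold change -0.05, adjusted p = 0.494). TRA2B, which binds GAA-rich enhancers, had a log2 fold change of -0.17 (adjusted p = 0.0194), and its call was lost without siCtrl 2 and without siDDX17 2. TRA2A was at 52.3, 39.9 and 39.2 CPM in the controls, against 39.6, 37.2 and 40.3 CPM after knockdown, where siCtrl 1 was above the other 5 libraries, and its log2 fold change of -0.17 became -0.03 without that library.

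Of the 12 U2 snRNP and U2AF genes 3 rose, 3 fell and 6 passed in neither direction, near the shares of all tested genes (24.5% and 24.3%). Their median log2 fold change was 0.08. The counts were 3 and 3 without siCtrl 1, and 5 and 2 with library size only. SF3B2 (chr11:66050729-66069308), a subunit of the SF3B complex that contacts RNA near the branch point, was at 131, 149 and 159 CPM in the 3 controls (siCtrl 1, 2 and 3), against 247, 247 and 232 CPM in siDDX17 1, 2 and 3. Its lowest siDDX17 value was well above the highest control, and the level was higher by 65.2% (log2 fold change 0.72, SE 0.07, adjusted p = 2.29e-06). SF3A2, a subunit of SF3A, the complex that joins SF3B to the U2 snRNP, was at 33.7, 34.7 and 32.6 CPM in the controls, against 47.3, 51.9 and 52.4 CPM after knockdown (log2 fold change 0.59, SE 0.06, adjusted p = 6.22e-06). The small subunit SF3B6, which sits close to the branch point adenosine, rose by 0.21 (adjusted p = 0.0293), although the groups overlapped and the call was lost without siCtrl 3, siDDX17 1 or siDDX17 3.

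SF3B4, an RNA-binding subunit of the same SF3B complex, moved the other way. It was at 179, 207 and 201 CPM in the controls, against 145, 148 and 140.4 CPM after knockdown, with siCtrl 1 the lowest control (log2 fold change -0.44, SE 0.06, adjusted p = 8.01e-05). U2AF2, the large U2AF subunit that binds the pyrimidine tract, was at 394, 407 and 405 CPM in the controls, against 299.9, 303 and 292 CPM after knockdown, with narrow spread in both groups (log2 fold change -0.43, SE 0.05, adjusted p = 1.78e-05). SF3B1, the branch point protein that is mutated in several cancers, had a log2 fold change of -0.27 (adjusted p = 0.00215) and did not pass with library size only. SF3B5 and SF3B3, further subunits of the complex, had log2 fold changes of 0.04 and -0.00 with overlapping groups. U2AF1, the small subunit that reads the AG at the end of the intron, was listed at only 1.6, 1.26 and 1.42 FPKM in the controls, against 1.72, 1.59 and 2.17 FPKM after knockdown. In GENCODE release 44, 98.6% of its windows also occur in an entry typed as an artifact, and a read that maps to both is not a unique read, so its level and its log2 fold change of 0.22 cannot be taken as measures of the gene.

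Of the 8 Sm core genes 0 rose, 2 fell and 6 passed in neither direction, with a median log2 fold change of -0.08. The Sm proteins form the ring around U1, U2, U4 and U5 snRNA. SNRPB, the most abundant of the 80 genes by FPKM, was at 683, 761 and 773 CPM in the 3 controls (siCtrl 1, 2 and 3), against 532, 548 and 519.7 CPM in siDDX17 1, 2 and 3. It fell by 27.8% (log2 fold change -0.47, SE 0.06, adjusted p = 3.30e-05), with all siDDX17 values below the lowest control. SNRPD3, whose product pairs with the SNRPB protein in the ring, was at 72.9, 90.2 and 84.3 CPM in the controls, against 62.7, 63.5 and 61.6 CPM after knockdown (log2 fold change -0.40, SE 0.07, adjusted p = 5.17e-04). The SNRPB paralog SNRPN, an imprinted gene, was at 116, 125 and 129.6 CPM in the controls, against 110.1, 116 and 111 CPM after knockdown (log2 fold change -0.13, adjusted p = 0.074), and 60.3% of its windows recur in other genes, mostly SNURF, with which it shares a transcript. SNRPB made up 93.2% ± 0.104 in siCtrl and 91.6% ± 0.14 in siDDX17 of the SNRPB and SNRPN sum of FPKM (SD, n = 3, exact p = 0.1, adjusted p = 0.28).

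The first control library was the lowest control for 8 of the 8 Sm genes. Without siCtrl 1 there were 5 lower in place of 2, SNRPD1, SNRPG and SNRPN being the added ones. SNRPD2, second by FPKM, was at 375, 474 and 461 CPM in the controls, against 459, 479 and 463 CPM after knockdown, and its log2 fold change of 0.10 became -0.01 without that library. With library size only, 2 Sm genes were higher and 2 lower. Of SNRPA and SNRPC (U1 snRNP) and SNRPA1 and SNRPB2 (U2 snRNP), 0 passed in either direction, with log2 fold changes of -0.17, -0.07, -0.01 and 0.01. Without siCtrl 1, SNRPC was lower (-0.13, adjusted p = 0.0205).

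Among the 13 LSM genes 4 rose, 4 fell and 5 passed in neither direction, with a median log2 fold change of -0.02. The counts were 4 and 6 without siCtrl 1, and 5 and 3 with library size only. LSM proteins form related rings that share most subunits: the ring with LSM8 binds U6 snRNA in the nucleus, and the ring with LSM1 takes part in mRNA decapping in the cytoplasm. Both of these defining subunits rose. LSM8 was at 23.1, 25.8 and 22.98 CPM in the controls, against 33.3, 32.2 and 34.4 CPM after knockdown (log2 fold change 0.48, SE 0.07, adjusted p = 9.00e-05), and LSM1 at 38.2, 40.2 and 37.04 CPM in the controls, against 44.3, 43.9 and 48.05 CPM after knockdown (log2 fold change 0.24, SE 0.06, adjusted p = 0.00674), though the LSM1 call was lost without siDDX17 3 (adjusted p = 0.0539). The shared subunits moved in different directions. LSM6 was at 9.01, 10.3 and 10.6 CPM in the controls, against 13.2, 12.2 and 12.4 CPM after knockdown and rose (log2 fold change 0.33, adjusted p = 0.00769), and LSM7 rose by 0.27 (adjusted p = 0.00339). LSM4 was at 121, 142 and 135 CPM in the controls, against 95.1, 99.5 and 92.3 CPM after knockdown and fell (log2 fold change -0.47, SE 0.07, adjusted p = 6.12e-05). LSM2, LSM3 and LSM5 had log2 fold changes of -0.02, 0.05 and -0.12 and did not pass.

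The remaining LSM decreases were in proteins outside these rings. LSM14B, of a family found in P-bodies, had a log2 fold change of -0.35 (adjusted p = 6.38e-04), while its paralog LSM14A differed by 0.04. LSM12 had a log2 fold change of -0.32 (adjusted p = 2.09e-04). LSM11, which with LSM10 replaces 2 Sm proteins in the U7 snRNP of histone mRNA processing, was at 6.497, 6.99 and 7.499 CPM in the controls, against 5.63, 4.77 and 5.58 CPM after knockdown (log2 fold change -0.39, SE 0.11, adjusted p = 0.0109), and this call was lost without siDDX17 2 (adjusted p = 0.0536).

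The MBNL, CELF, ESRP and RBFOX2 group had 8 genes, of which 4 were tested, with 1 higher and 1 lower, also without siCtrl 1. MBNL1 and CELF1, whose proteins often act against each other on exons of muscle and other tissues, moved in opposite directions. CELF1 was at 56.1, 52.5 and 50.7 CPM in the controls, against 60.7, 63.3 and 61.1 CPM after knockdown, with no overlap (log2 fold change 0.22, SE 0.06, adjusted p = 0.00782). MBNL1 was at 69.1, 54.9 and 52.4 CPM in the controls, against 45.9, 44.03 and 47.3 CPM after knockdown, with siCtrl 1 well above the other controls (log2 fold change -0.36, SE 0.09, adjusted p = 0.00424). Without that library its log2 fold change was -0.24, and with library size only it did not pass (adjusted p = 0.0669). MBNL2 was at 19.3, 10.7 and 10.3 CPM in the 3 controls (siCtrl 1, 2 and 3), against 12.01, 12.3 and 12.4 CPM in siDDX17 1, 2 and 3. The first control was far above all others, and the log2 fold change of -0.14 reversed to 0.21 without it, neither passing. RBFOX2, which binds GCAUG, was at 42.4, 40.9 and 40.6 CPM in the controls, against 41.3, 38.3 and 37.7 CPM after knockdown with overlapping groups.

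The regulators that keep epithelial splicing, ESRP1 and ESRP2, were close to absent in these keratin-rich cells. ESRP1 had 0 counts in each siCtrl library and 6, 1 and 4 in siDDX17, and ESRP2 had 0 in each siCtrl library and 0, 0 and 4 in siDDX17. CELF2 had 1, 3 and 0 counts in siCtrl and 4, 7 and 2 in siDDX17, and MBNL3 had at most 4. A count of 0 allows up to 3 counts in a library, so differences at this level are uncertain. These genes were tested only in the fit with no low-count filter. There 1 gene of the families was higher by over 2-fold at an adjusted p under 0.05, against 0 with the filter.

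**Figure D5:**
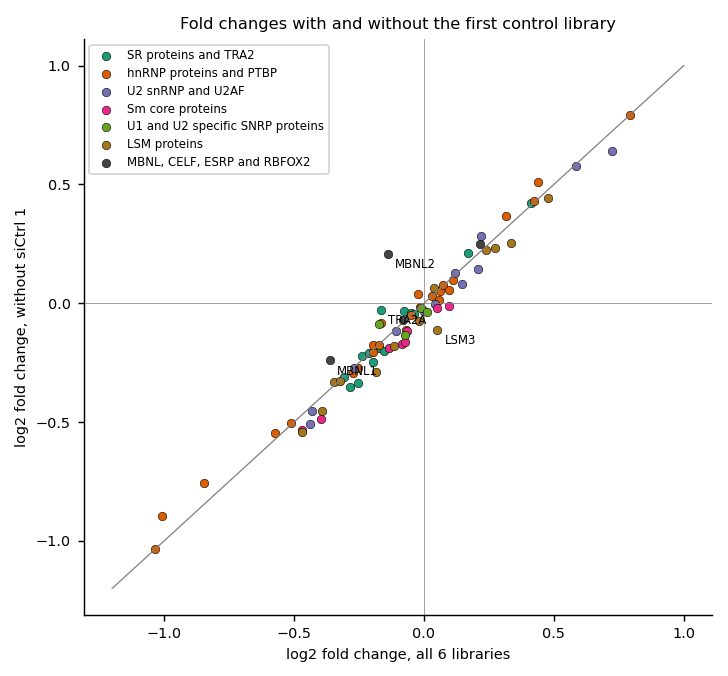
Log2 fold change without siCtrl 1 (y axis) against that with all 6 libraries (x axis) for the 80 tested genes, coloured by role, with the line of equality. Most points lie on the line, the Sm and some LSM genes lie below it, and MBNL2 moves from below 0 to above 0.

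Small RNAs can lower mRNAs through a match of their bases 2 to 8 to a 3' UTR, so the 3' UTRs of the canonical transcripts were searched on the transcript strand alone for TATTGCT, the 7 letters to which the guide (antisense) strand of the siRNA against DDX17 would pair. They were found in 17 of the 80 tested genes (21.25%), beside 14.5% of the 12994 tested genes with a 3' UTR of at least 30 bases. Of the 17, 2 rose, 5 fell and 10 passed in neither direction (median log2 fold change -0.02), and without siCtrl 1 the counts were 3 and 6. Of the 63 without it, 11 rose and 22 fell (median -0.08), or 11 and 28 without siCtrl 1. The share of genes that fell was thus 29.4% with the letters and 34.9% without, beside 24.3% of all tested genes, and the share that rose was 11.8% and 17.5%, beside 24.5%. Over all tested genes the median log2 fold change was -0.03 with TATTGCT and -0.00 without. TCGGAGA, which would pair with the sense strand of the siRNA used as control, was in 1 gene, LSM4 (1.25%, beside 2.13% of all genes). Over all tested genes the median log2 fold change was 0.23 for the 277 with TCGGAGA and -0.01 for the others, so genes with these letters were on balance lower in siCtrl, whereas LSM4 was lower in siDDX17. The opposite strand of each siRNA was added after these values had been seen. ATGGGTG, for the sense strand of the siRNA against DDX17, was in 6 of the 80 genes (7.5%, beside 10.5% of all genes), and TGTCACG, for the antisense strand of the control siRNA, was in 0 of them (beside 3.08%). Over all tested genes the medians with these letters were -0.01 and 0.03. Among the 80 genes the median was -0.28 for the 6 with ATGGGTG and -0.07 for those without. HNRNPA1 has 1 TATTGCT, at base 1729 of its 3' UTR, and PTBP3, HNRNPUL2, SNRPB and U2AF2 have none. The windows of the genes that passed the test are shown because they include the deepest decrease, with the matched letters in capitals. The sequences are those of GENCODE release 44 on GRCh38, written 5' to 3' as DNA. The part of these matches in the results was not tested.
HNRNPA1: aggaaaggtttTATTGCTatgcgggtagg
HNRNPK: gtttggaagtcTATTGCTgggaagaaatt
HNRNPR, first match: tgctataaggcTATTGCTtgtcaattatc
HNRNPR, second match: aatatttaaatTATTGCTaaagattaaaa
SNRPD3: ggcttttagaaTATTGCTcattgaacaga
SRSF10, first match: gttgaccataaTATTGCTtagttttctta
SRSF10, second match: ttgtcttcggtTATTGCTatctacaagac
CELF1: ttgtttggatgTATTGCTctgtgtaactc
LSM8: tactatagataTATTGCTgttaattatta
LSM4: agggtcctcgtTCGGAGAcctattttgag

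The windows differ around the 7 shared letters. Of the 7 genes with TATTGCT that passed the test, HNRNPA1, HNRNPK, HNRNPR, SNRPD3 and SRSF10 fell, and LSM8 and CELF1 rose.

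Splicing factors outside these families were counted from lists of named genes. The counts are to be read beside the 24.5% of all tested genes that rose and the 24.3% that fell (26.4% and 27.0% without siCtrl 1). They are under TMM and were not made with library size only, so their dependence on the scaling was not tested. Of 8 kinases of SR proteins, 0 rose and 2 fell (25.0%), or 1 and 3 without siCtrl 1, where SRPK2 was the one higher (log2 fold change 0.27 with all libraries and 0.44 without it). CLK2 was the decrease with the smallest p (30.7, 30.5 and 30.1 CPM in the controls, against 24.7, 25.2 and 23 CPM after knockdown, log2 fold change -0.32). Of 21 snRNP proteins, those of U1, U5 and U4/U6 together with SNRNP25, SNRNP35 and SNRNP48 of the minor spliceosome, 5 rose (23.8%) and 6 fell (28.6%), or 4 and 7 without siCtrl 1, shares close to those of all genes. SNRNP35 is among the 6, at an adjusted p of 0.0487. SART1, which helps U4/U6 and U5 join, rose most clearly (43.6, 45.3 and 45.3 CPM in the controls, against 75.7, 80.6 and 76.4 CPM after knockdown, log2 fold change 0.79), and EFTUD2, the GTPase of the U5 snRNP, fell (230.2, 229.8 and 252 CPM in the controls, against 203, 209.6 and 193 CPM after knockdown, -0.24). Of 21 Prp19 complex and catalytic step proteins, 5 rose (23.8%), among them PLRG1 (0.40), and 7 fell (33.3%), among them the helicase DHX15 (-0.45). Without siCtrl 1 the counts were 4 and 9.

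Of 16 genes of snRNP assembly, in which the SMN complex loads Sm rings onto snRNA, 3 rose (18.8%) and 6 fell (37.5%), or 3 and 7 without siCtrl 1. GEMIN2, the SMN partner that holds the Sm proteins, was at 15.7, 15.3 and 17.2 CPM in the controls, against 10.2, 9.27 and 8.18 CPM after knockdown (log2 fold change -0.80), and SNUPN, the import adaptor of snRNPs, rose by 0.45. SMN1 and SMN2 were both lower (-0.25 and -0.39), but they are near-identical copies, so these 2 of the 6 decreases cannot be separated. Of the 35 tested among the other splicing regulators, 7 rose (20.0%) and 12 fell (34.3%), or 8 and 14 without siCtrl 1. TAF15, an RNA-binding protein, had the smallest p of those that rose and was at 97.8, 101 and 112 CPM in the controls, against 196, 195 and 194 CPM after knockdown, with no overlap between the groups (log2 fold change 0.91).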

How the data were processed

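Polyadenylated RNA of 3 siCtrl and 3 siDDX17 cultures of A549 cells was sequenced. After trimming, the authors aligned reads to GRCh38 using TopHat2, and they deposited raw counts of uniquely mapped reads per gene and the FPKM values they computed from them. The counting program, the annotation version and the use of strand are not given in the sources used here, so overlapping and near-identical genes are uncertain. Counts were analysed with edgeR 4.0.16 in R 4.3.3 (filterByExpr, TMM, glmQLFit, glmQLFTest, Benjamini-Hochberg), which was also tested on counts simulated for this comparison. With genewise dispersions (15433 genes tested) 12.4% of the calls were wrong. The simulation was then changed to trended dispersions (15446 genes), which gave 8.33%, also above the nominal 5%. In both simulations 200 genes were changed, far fewer than the 3819 higher and 3798 lower genes called in the data. The share of wrong calls depends on that number, so these shares do not carry over directly. Calls close to the threshold are to be read with care. With trended dispersions 86 of 100 genes changed by 2-fold and 68 of 100 changed by 1.5-fold were called. Other scalings, filters, call rules, DESeq2 1.42.0, limma 3.58.1 on log2(FPKM + 1) and log2(FPKM + 0.1), the replicate number as a block and each library left out in turn were tried. The same replicate numbers did not pair the libraries: the correlations of their deviations from the group means were 0.01, 0.04 and -0.06. Locations, shared windows and 3' UTRs are from GENCODE release 44, matched by identifier for 84 of 84 genes.

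The genes named in full are those changed by over 2-fold, the 8 largest changes in each direction among genes whose average log2 CPM was 3 or more and whose groups did not overlap, the 2 highest FPKM of each role, the paralog sets and the clearest gene of each other list. Other genes are named as further members of a role or where a call depends on a setting. The genes and lists were chosen with earlier results of these data known. Protein sequences were not used here, and 1 gene that the rule names is not reported here.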

Additional observations from a re-analysis of the deposited data

How the results depend on the processing

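The number of splicing genes higher and lower was 13 and 27 under TMM, 25 and 15 with library size only, and 27 and 15 with limma on log2(FPKM + 1) and on log2(FPKM + 0.1), since these 2 scales keep the shift of all genes. It was 3 and 3 at an unadjusted p under 0.01 with a fold change of 1.5, and 1 and 2 with glmTreat against 1.5-fold, which are stricter by construction. With upper quartile scaling it was 16 and 23, with no low-count filter 14 and 30, with at least 10 counts in every library 14 and 26, and with DESeq2 or RLE scaling 13 and 27. Leaving out 1 library gave 11 to 14 higher and 22 to 34 lower, with the most lower without siCtrl 1. As choices made after seeing the data, Benjamini-Yekutieli adjustment gave 9 and 19, and leaving out the 4 genes that share most of their sequence gave 13 and 25. With the replicate number as a block the counts were 13 and 27. The numbers do not pair the samples, and the block changed no other call among the named genes.

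The 2 decreases of over 2-fold became 0 with library size only and with both FPKM fits. They became 1 with at least 10 counts in every library and with upper quartile scaling, and 1 to 2 when a library was left out, the value being 1 without siCtrl 1, siDDX17 2 or siDDX17 3. The increases of over 2-fold became 1 with no low-count filter and stayed at 0 when a library was left out. The DDX17 log2 fold change lay between -2.66 and -2.30.

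Fold changes near 0 changed sign, none of them passing the test. LSM2 became 0.103 with library size only, 0.104 (FPKM + 0.1), 0.103 (FPKM + 1) and 0.0104 with upper quartile scaling, and lay between -0.117 and 0.0329 with a library left out. PTBP2 became 0.0967, 0.0867, 0.0386 and 0.00651 under the same 4 settings, and lay between -0.0740 and 0.0369. SNRPC became 0.0520, 0.0584 and 0.0579 under the first 3, and MBNL2 became 0.0480 (FPKM + 0.1) and 0.0242 (FPKM + 1) and lay between -0.310 and 0.209. With a library left out, SF3B5 lay between -0.0016 and 0.0649 and SNRPD2 between -0.0116 and 0.151, both below 0 without siCtrl 1, and U2AF1L4 lay between -0.0773 and 0.238, below 0 without siDDX17 2. Differences in paralog shares near 0 changed sign likewise, in percentage points. PTBP2 became 0.0633 from CPM, and HNRNPA1 beside HNRNPA1L2 became -0.00155 and HNRNPH2 became 0.517. With a library left out, the difference lay between -0.0330 and 0.0229 for PTBP2, -0.0397 and 0.0619 for HNRNPA1, -1.50 and 0.704 for HNRNPH2, -0.910 and 2.35 for TRA2A, and -2.41 and 5.82 for U2AF1. Over the named genes, 555 of the alternative values kept direction and call, 24 gained and 15 lost the call, and 21 changed sign. Of the 80 genes, 4 had under 100 counts in some library, so small changes in them were not detectable.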
